A study of Mus musculus with 10 samples.

Results

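The 10 genes described here are *Glul*, *Cyp2e1*, *Cyp1a2*, *Slc1a2*, *Oat*, *Axin2*, *Rnf43*, *Znrf3*, *Lgr5* and *Tbx3*, which hepatocytes around the central vein of the liver lobule are known to express under Wnt signalling. They were chosen by symbol from the 24052 gene symbols counted in each of 10 mouse livers. In a liver lobule, Wnt ligands and R-spondin 3 from the endothelium of the central vein stabilize beta-catenin in the neighbouring hepatocytes, which then express glutamine synthetase, the cytochrome P450 enzymes of drug and ethanol metabolism, and a set of genes that act back on the Wnt pathway itself. Hepatocytes farther out, around the portal vein, receive little of this signal and express enzymes of urea synthesis, gluconeogenesis and glutamine breakdown. AXIN2, RNF43 and ZNRF3 are feedback inhibitors of Wnt signalling, and LGR5 is a receptor for R-spondins, so the 10 genes hold both metabolic outputs of the signal and readouts of the signal.

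RNA was sequenced from the livers of 5 wild-type (WT) and 5 Ndrg3 LKO C57BL/6 mice (a line backcrossed to C57BL/6N) with free access to food (ad libitum), each liver giving 1 library. Ndrg3 LKO mice carry floxed *Ndrg3* alleles, of which exon 4 is removed by Cre recombinase driven by the albumin promoter, so the deletion is confined by design to hepatocytes and other cells that use this promoter. WT littermates served as controls, and whether they carried a floxed allele or the Cre transgene was not given in the sources used here. The mice were male, and were 8 to 10 weeks old by the methods of the study, or 10 to 12 weeks old by its legend for the livers of its metabolome measurement, from which the RNA was also taken. For both measurements the legends of the study give 5 WT and 4 Ndrg3 LKO livers, and all 10 libraries were used here. In the counts, which cover the whole gene and not exon 4 alone, *Ndrg3* lay between 15.9 and 21.9 CPM (the count of a gene relative to the total count of its library, with totals scaled by the TMM method of edgeR) in WT livers and between 7.07 and 9.16 in Ndrg3 LKO livers, a log2 fold change of -1.20 ± 0.13 (SE, n = 5 and 5, adjusted p = 3.87e-05 by edgeR). *Alb*, the albumin gene that marks hepatocytes, averaged 94358 CPM in WT livers and 39861 CPM in Ndrg3 LKO livers, or 22864 CPM in these without Ndrg3 LKO replicate 5, in which it was 107850 CPM. Each library had between 20872262 and 30450057 counts.

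One library stood apart from its group. In Ndrg3 LKO replicate 5, the 20 most abundant genes held 26.6% of the counts, within the 26.2% to 28.0% of WT livers, against 16.3% to 17.3% in Ndrg3 LKO replicates 1 to 4. The median of 11 general hepatocyte genes, such as *Alb* and *Apob*, was 1.55 to 1.68 log2 units below the WT mean in Ndrg3 LKO replicates 1 to 4 and 0.21 below it in replicate 5, although *Ndrg3* itself was as low there (8.25 CPM) as in the other Ndrg3 LKO livers. These 11 genes were split in replicate 5. *Apoa1*, *Apob*, *Fgb*, *Serpinc1*, *Hnf4a* and *Cebpa* were below every WT liver there, while *Alb*, *Ttr*, *Apoh*, *Ahsg* and *Rbp4* were not. The values of the 10 genes, and those of the other genes and lists that changed without this library, are therefore also given without it.

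Of the 10 genes, all of which passed the filter of at least 1 CPM in at least 5 livers, 4 fell, 2 rose and 4 did not pass the test. *Glul*, *Cyp2e1*, *Slc1a2* and *Cyp1a2*, which encode metabolic enzymes and a transporter, fell. *Axin2* and *Rnf43*, which encode feedback inhibitors of the Wnt pathway, rose, while *Oat*, *Lgr5*, *Znrf3* and *Tbx3* did not pass the test in either direction. Differences were common among all genes in this comparison: of 11208 genes tested, 23.0% were called lower and 25.6% higher in Ndrg3 LKO livers (edgeR, adjusted p under 0.05). The 4 genes called lower out of 10 stand beside the first share and the 2 called higher beside the second, and the counts were not tested against these shares. When library sizes were not corrected by TMM, the median over all genes moved from 0.03 to 0.56 on the log2 scale and the share of calls that were higher from 52.6% to 85.2%, and *Glul*, *Cyp2e1*, *Slc1a2* and *Cyp1a2* still passed the test as lower and *Axin2* and *Rnf43* as higher. The p-values measure the spread between these livers. Fewer cells of a type and less RNA of a gene per cell cannot be told apart in whole-liver RNA.

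**Figure D1:**
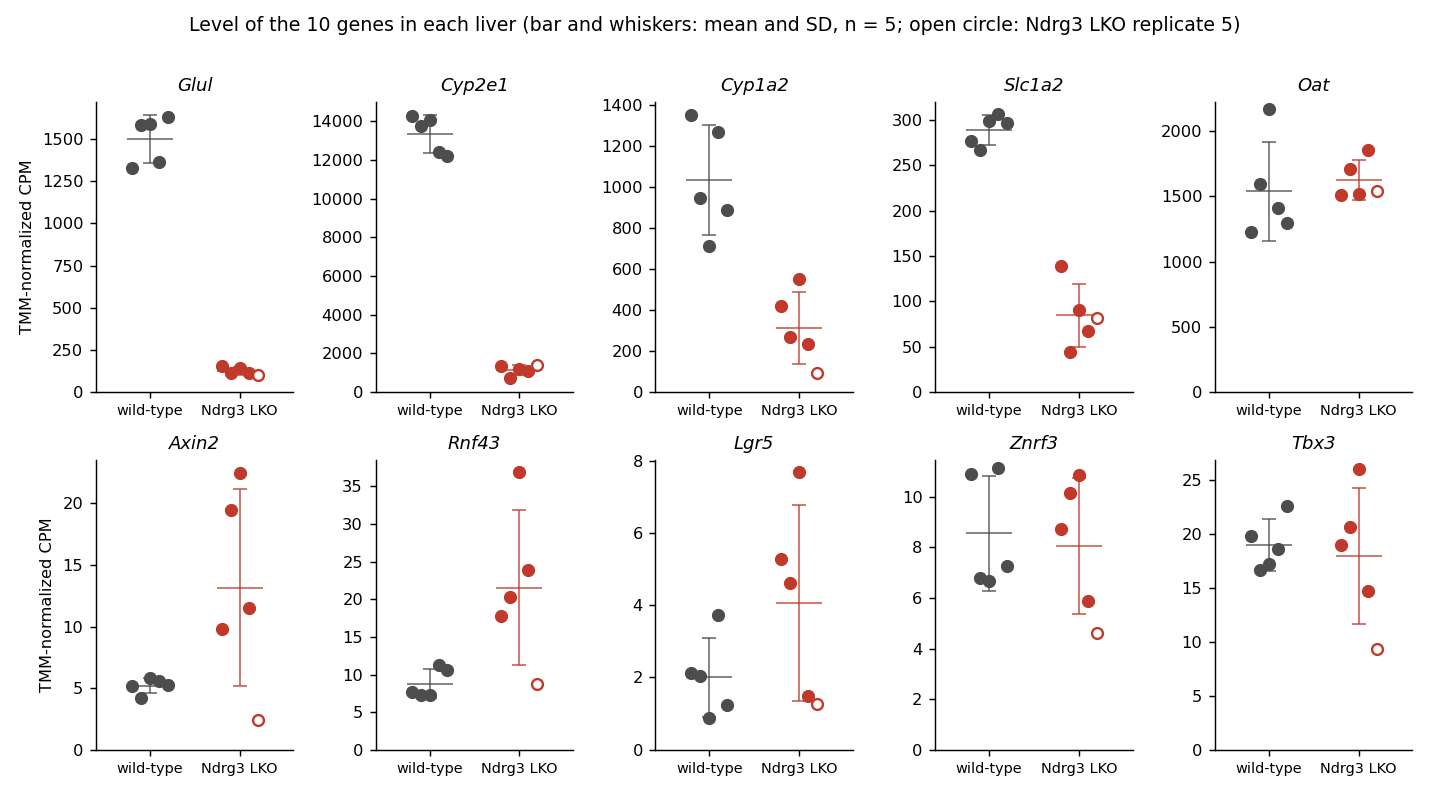
TMM-normalized CPM (vertical axis of each panel, linear and starting at 0) of the 10 genes in 5 WT livers and 5 Ndrg3 LKO livers, with the mean and SD of each group and an open circle for Ndrg3 LKO replicate 5. For Glul, Cyp2e1, Cyp1a2 and Slc1a2 every Ndrg3 LKO point lies below every WT point, and for Axin2, Rnf43 and Lgr5 the open circle lies among or below the WT points.

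The enzyme and transporter genes were examined first. *Glul* encodes glutamine synthetase, which fixes ammonia in the last hepatocytes before the central vein. Its level was 1329, 1582, 1593, 1367 and 1634 CPM in WT livers 1 to 5 and 151, 113, 142, 111 and 102 CPM in Ndrg3 LKO livers 1 to 5. The groups were far apart and did not overlap, and the Ndrg3 LKO livers varied little among themselves. The mean fell from 1501 ± 142 to 124 ± 21.4 CPM (SD, n = 5 and 5), a log2 fold change of -3.60 ± 0.18 (SE, adjusted p = 5.41e-07 by edgeR), and was -3.55 ± 0.17 without Ndrg3 LKO replicate 5.

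*Cyp2e1* encodes the cytochrome P450 that oxidizes ethanol and acetaminophen. It was 14298, 13757, 14049, 12402 and 12229 CPM in WT livers. In Ndrg3 LKO livers it was 1326, 722, 1188, 1055 and 1381 CPM. As for *Glul*, no Ndrg3 LKO liver came near the lowest WT liver, and replicate 5 was the highest of its group here and the lowest for *Glul*. This was a log2 fold change of -3.56 ± 0.23 (SE, n = 5 and 5, adjusted p = 1.77e-06 by edgeR) and -3.65 ± 0.21 without replicate 5.

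*Slc1a2*, which encodes the glutamate transporter that supplies substrate to glutamine synthetase, was between 267 and 306 CPM in the 5 WT livers, at 277, 267, 299, 306 and 296. In Ndrg3 LKO livers it was 139, 44.1, 90.5, 67.5 and 81.8 CPM. The lowest WT value was above the highest Ndrg3 LKO value, and the log2 fold change was -1.78 ± 0.25 (SE, n = 5 and 5, adjusted p = 0.000212 by edgeR) and likewise -1.78 without replicate 5.

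*Cyp1a2*, a cytochrome P450 of caffeine and aromatic amine metabolism, varied more. It was 1351, 944, 713, 1268 and 885 CPM in WT livers and 421, 266, 549, 234 and 94.1 CPM in Ndrg3 LKO livers. The groups were separated by the gap between 549 and 713 CPM, and replicate 5 was the lowest Ndrg3 LKO liver. *Cyp1a2* differed by -1.72 ± 0.39 on the log2 scale (SE, n = 5 and 5, adjusted p = 0.00361 by edgeR) and -1.50 ± 0.28 without replicate 5.

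*Oat* encodes ornithine aminotransferase, a mitochondrial enzyme that shares the pericentral position of *Glul*. It was 1228, 1599, 2173, 1415 and 1293 CPM in WT livers and 1509, 1713, 1516, 1858 and 1543 CPM in Ndrg3 LKO livers. The Ndrg3 LKO values all lay within the WT range. The difference was 0.08 ± 0.18 on the log2 scale (SE, n = 5 and 5, adjusted p = 0.746 by edgeR), so that within this list the spread of fold changes ran from -3.60 to 0.08. Only without the TMM correction did *Oat* pass the test, at 0.61 (adjusted p = 0.0197 by edgeR), where the median of all genes stood at 0.56.

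For *Glul*, *Cyp2e1*, *Slc1a2* and *Cyp1a2*, every Ndrg3 LKO liver was below every WT liver, as was the case for 15.9% of all genes tested. For each of these genes the 2-sided exact permutation test of mean log2(CPM + 1) gave p = 0.00794, which is the smallest value that 10 livers allow. The general hepatocyte genes moved in the same direction, with 8 of 11 called lower, a median log2 fold change of -1.24 (10 of 11 and -1.56 without replicate 5) and a summed level of 143541 to 181685 CPM in WT livers, 42137 to 50914 in Ndrg3 LKO replicates 1 to 4 and 160803 in replicate 5. Of all genes tested, 23.0% were called lower, or 27.2% without replicate 5. For 6 of the 11 general hepatocyte genes, every Ndrg3 LKO liver, replicate 5 included, was below every WT liver. *Alb* alone held 107850 CPM of the summed level in replicate 5. The part of this shift of the general hepatocyte genes in the result was not tested. In replicate 5, *Glul* was 3.87, *Cyp2e1* 3.27, *Cyp1a2* 3.40 and *Slc1a2* 1.81 log2 units below the WT mean.

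**Figure D2:**
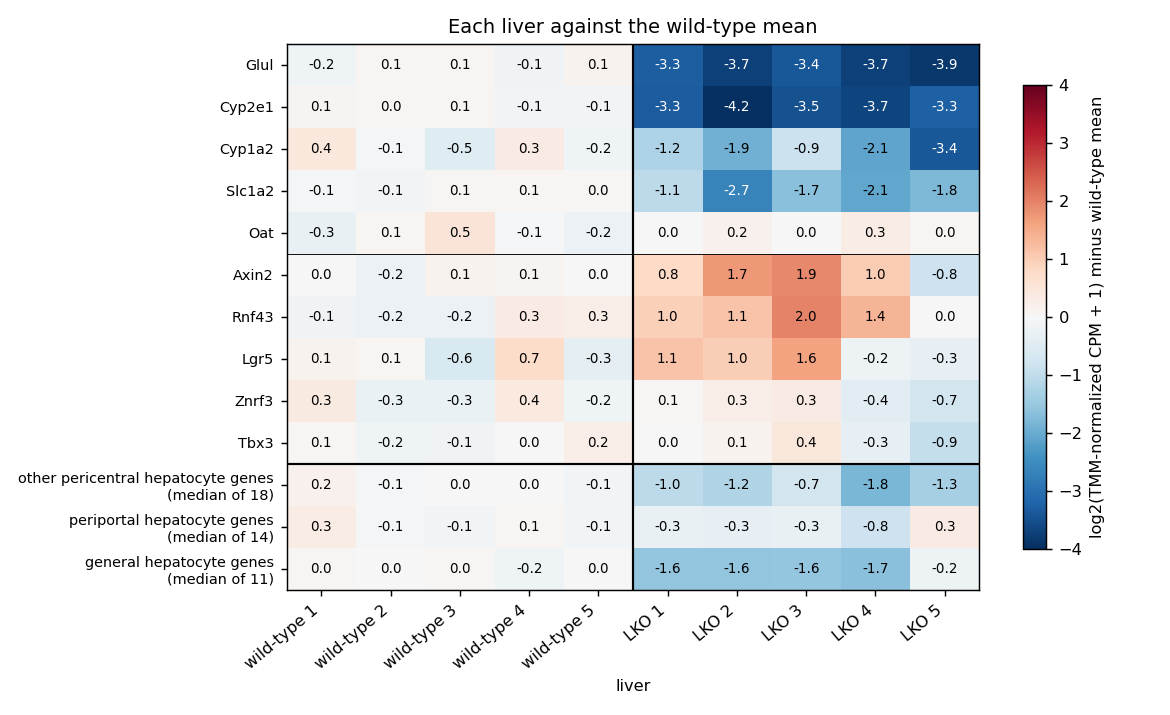
Difference of log2(TMM-normalized CPM + 1) from the WT mean (colour and printed value) for the 10 genes and for the medians of 3 gene lists (rows) in each of 10 livers (columns). Glul and Cyp2e1 are 3.27 to 4.20 below the WT mean in every Ndrg3 LKO liver, while Axin2 and Rnf43 are 0.80 to 1.98 above it in replicates 1 to 4 and at -0.84 and 0.01 in replicate 5.

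The promoters of the genes that fell are shown, since they moved together, with that of *Axin2*, which rose, for comparison. Each is the 250 bases before the gene's start from RefSeq (GRCm38.p6, gene strand), and capitals mark the letters CTTTGAA or CTTTGAT, the core bound by the TCF and LEF factors through which beta-catenin acts, searched on both strands. The windows are chr7:140763569-140763818 (plus strand) for *Cyp2e1*, chr9:57683656-57683905 (minus strand) for *Cyp1a2*, chr2:102706188-102706437 (plus strand) for *Slc1a2*, chr1:153899679-153899928 (plus strand) for *Glul* and chr11:108920099-108920348 (plus strand) for *Axin2*.
Cyp2e1: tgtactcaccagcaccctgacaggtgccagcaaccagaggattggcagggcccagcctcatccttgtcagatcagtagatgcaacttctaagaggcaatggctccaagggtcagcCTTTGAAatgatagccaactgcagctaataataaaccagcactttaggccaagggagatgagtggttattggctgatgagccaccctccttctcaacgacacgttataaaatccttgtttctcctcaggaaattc
Cyp1a2: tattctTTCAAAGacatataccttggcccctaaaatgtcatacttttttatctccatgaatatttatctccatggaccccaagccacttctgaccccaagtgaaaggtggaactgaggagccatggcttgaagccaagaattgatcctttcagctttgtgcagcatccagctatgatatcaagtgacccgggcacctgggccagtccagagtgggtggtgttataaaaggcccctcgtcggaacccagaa
Slc1a2: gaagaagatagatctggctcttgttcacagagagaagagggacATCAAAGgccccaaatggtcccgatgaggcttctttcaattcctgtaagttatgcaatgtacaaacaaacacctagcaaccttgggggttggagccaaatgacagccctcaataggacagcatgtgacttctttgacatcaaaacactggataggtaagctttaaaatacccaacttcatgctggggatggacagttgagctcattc
Glul: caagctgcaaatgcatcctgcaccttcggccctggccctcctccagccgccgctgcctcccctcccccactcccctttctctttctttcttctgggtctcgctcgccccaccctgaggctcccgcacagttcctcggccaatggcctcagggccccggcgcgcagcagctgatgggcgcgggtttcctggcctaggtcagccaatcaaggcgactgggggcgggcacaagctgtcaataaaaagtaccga
Axin2: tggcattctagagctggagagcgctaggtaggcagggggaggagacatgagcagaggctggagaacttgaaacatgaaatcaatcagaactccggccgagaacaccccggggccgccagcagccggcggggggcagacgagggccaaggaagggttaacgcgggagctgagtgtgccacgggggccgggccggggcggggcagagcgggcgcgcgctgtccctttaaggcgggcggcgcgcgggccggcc
The letters occurred once in *Cyp2e1*, on the gene's strand, starting 135 bases before the start. They also occurred once each in *Cyp1a2* and *Slc1a2*, on the opposite strand, 244 and 207 bases before the start. No match lay in the windows of *Glul*, *Axin2*, *Oat* or *Rnf43*. Of 32851 windows of all genes, 7.48% held a match, against 3 of the 8 windows found for 7 of the 10 genes (*Lgr5*, *Tbx3* and *Znrf3* had no window). The 10 genes had been chosen as expressed under Wnt signalling, and the shares were not tested against each other. A match is a description of the letters and no measure of binding.

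The genes that act on the Wnt pathway or report on it were examined next. *Axin2*, a scaffold of the complex that degrades beta-catenin and a widely used reporter of Wnt activity, was 5.16, 4.20, 5.79, 5.60 and 5.24 CPM in WT livers. In Ndrg3 LKO livers it was 9.77, 19.5, 22.5, 11.5 and 2.45 CPM. Ndrg3 LKO replicates 1 to 4 all lay above the WT range and replicate 5 lay below it. On the log2 scale the rise of *Axin2* was 1.34 ± 0.43 (SE, n = 5 and 5, adjusted p = 0.0216 by edgeR) and 1.59 ± 0.24 without replicate 5 (adjusted p = 0.00018). The call was lost without Ndrg3 LKO replicate 3 (adjusted p = 0.0575 by edgeR) and without WT replicate 2 (adjusted p = 0.0518), and the exact permutation test over 5 and 5 livers gave p = 0.103.

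*Rnf43*, a ubiquitin ligase that removes Wnt receptors from the cell surface, was 7.69, 7.23, 7.24, 11.3 and 10.6 CPM in WT livers and 17.7, 20.3, 37.0, 23.9 and 8.72 CPM in Ndrg3 LKO livers. As for *Axin2*, replicate 3 was the highest liver, replicates 1 to 4 lay above the WT range and replicate 5 was separate from them, here inside that range. The log2 fold change was 1.29 ± 0.31 (SE, n = 5 and 5, adjusted p = 0.00519 by edgeR) and 1.48 ± 0.23 without replicate 5. The exact permutation test gave p = 0.0238.

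*Lgr5*, the R-spondin receptor that marks a few pericentral hepatocytes, was low, at 2.13, 2.05, 0.891, 3.72 and 1.25 CPM in WT livers and 5.29, 4.60, 7.67, 1.48 and 1.27 CPM in Ndrg3 LKO livers. Replicates 1 to 3 lay above the WT range and replicates 4 and 5 within it. The log2 fold change of 1.01 ± 0.51 (SE, n = 5 and 5) did not pass the test with all livers (adjusted p = 0.118 by edgeR) and passed it without replicate 5, at 1.22 ± 0.46 (adjusted p = 0.0388). *Lgr5* passed in only 2 of the 16 alternative fits that tested it. The exact permutation test gave p = 0.206, or 0.0873 without replicate 5.

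The values of *Znrf3* and *Tbx3* overlapped between the groups. *Znrf3*, a ubiquitin ligase closely related to *Rnf43*, was 10.9, 6.79, 6.68, 11.1 and 7.26 CPM in WT livers and 8.74, 10.2, 10.9, 5.90 and 4.62 CPM in Ndrg3 LKO livers. *Tbx3*, a transcription factor of pericentral hepatocytes, was 19.8, 16.6, 17.2, 18.6 and 22.6 CPM in WT livers and 18.9, 20.7, 26.0, 14.7 and 9.29 CPM in Ndrg3 LKO livers. For both genes replicate 3 was the highest and replicate 5 the lowest Ndrg3 LKO liver. Their log2 fold changes were -0.08 ± 0.26 (SE, n = 5 and 5, adjusted p = 0.809 by edgeR) for *Znrf3* and -0.08 ± 0.23 (adjusted p = 0.794) for *Tbx3*, and both turned positive without replicate 5, at 0.05 and 0.07.

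Without Ndrg3 LKO replicate 5, 4 of the 10 genes were called lower and 3 higher, beside 27.2% and 28.4% of the 11446 genes then tested. None of the 10 genes had every Ndrg3 LKO liver above every WT liver, beside 15.6% of all genes tested. *Axin2*, *Rnf43*, *Lgr5*, *Tbx3* and *Znrf3* were all lower in replicate 5 than the mean of replicates 1 to 4, by 2.21 log2 units for *Axin2*, 1.35 for *Rnf43*, 1.21 for *Lgr5*, 1.01 for *Tbx3* and 0.79 for *Znrf3*. Of the enzyme and transporter genes, *Cyp1a2* was also lower in replicate 5, by 1.87 log2 units, *Glul* by 0.33 and *Oat* by 0.09, while *Cyp2e1* was 0.40 and *Slc1a2* 0.06 log2 units higher.

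**Figure D3:**
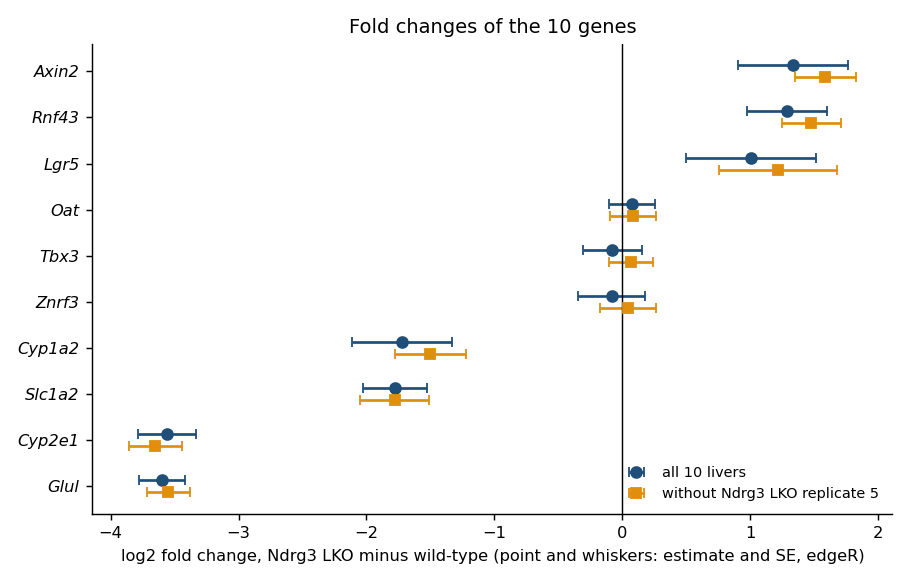
Log2 fold change of Ndrg3 LKO minus WT (horizontal axis, point with SE from edgeR) of the 10 genes over all 10 livers (circles) and without Ndrg3 LKO replicate 5 (squares). Glul and Cyp2e1 lie near -3.6 in both fits, Cyp1a2 and Slc1a2 between -1.78 and -1.50, and Axin2, Rnf43 and Lgr5 between 1.01 and 1.59.

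Levels were compared between genes per kilobase of exon, using the mm9 gene models. In WT livers *Cyp2e1* stood at 7305 ± 527 CPM per kb (SD, n = 5), above all others. *Oat* (715 ± 176), *Cyp1a2* (546 ± 142) and *Glul* (451 ± 42.5) came next, with ranges that overlapped between neighbours, and then *Slc1a2* at 22.0 ± 1.25. *Tbx3* followed at 3.53 ± 0.44, above *Rnf43* (1.34 ± 0.30), *Znrf3* (1.08 ± 0.29) and *Axin2* (0.94 ± 0.11), among which *Znrf3* overlapped both others while *Rnf43* and *Axin2* did not overlap, and *Lgr5* was lowest at 0.20 ± 0.11 CPM per kb. In Ndrg3 LKO livers the mean of *Oat* (755 ± 71.1) was above that of *Cyp2e1* (621 ± 144), with overlapping ranges, and *Glul* (37.1 ± 6.43) came below *Cyp1a2* (165 ± 93.1) in every value. *Rnf43* (3.28 ± 1.57), *Tbx3* (3.34 ± 1.17) and *Axin2* (2.39 ± 1.45) overlapped there. Annotated genes on the opposite strand overlap *Glul*, *Axin2*, *Lgr5*, *Rnf43*, *Slc1a2* and *Tbx3*, and those on the same strand overlap *Glul*, *Rnf43* and *Oat*. The strand setting of the counting was not given in the sources used here, so reads from such neighbours cannot be told apart.

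In mm9 *Glul* lies at chr1:155747074-155756853 and *Cyp2e1* at chr7:147949638-147960874, both on the plus strand, and *Axin2* at chr11:108781663-108812097 on the plus strand. By root mean square difference of log2(CPM + 1), relative to the WT mean, over the 10 livers, *Cyp2e1* was the gene closest to *Glul* among all genes tested, and *Glul* the closest to *Cyp2e1*, at 0.27. The next for both were *B3galt1*, a galactosyltransferase gene, which went from 25.6 to 1.69 CPM on average, and *E030018B13Rik*, from 11.4 to 0.133 CPM. The last of these had a log2 fold change of -6.69 in edgeR and passed the filter only through WT livers, so its nearness rests on the 1 CPM added before the logarithm. The genes closest to *Axin2* were *Slc35g1* and *Col13a1*, both at 0.29.

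The Wnt pathway was then followed from ligand to target over 85 further genes. Of these, 46 passed the filter on low counts, and 9 were called lower and 11 higher (beside 23.0% and 25.6% of all genes), with a median log2 fold change of 0.08 beside 0.03 for all genes. Without Ndrg3 LKO replicate 5, 8 of 48 were called lower and 16 higher, beside 27.2% and 28.4% of all genes, with a median of 0.23 beside 0.03. Counted as higher there were *Wnt9b* and *Lef1*, tested only in that fit, and in both fits *Dkk3* and *Frzb*. These genes were under 1 CPM in every WT liver and so passed the filter only through Ndrg3 LKO livers. Without the TMM correction, which moved the median of all genes to 0.56, 26 of the 46 were called higher and 4 lower, beside 5821 and 1010 of all 11208 genes. On the ligand side, *Wnt2*, *Wls* and *Rspo3* rose and *Wnt5b* fell, among 6 genes tested of 25 (1 fell and 4 rose of 7 without replicate 5), while 8 of the 25 had 0 counts in every liver. *Wnt2*, a ligand of the liver endothelium, was 1.35, 1.47, 1.62, 1.65 and 2.14 CPM in WT livers and 6.73, 4.77, 4.87, 6.16 and 1.32 CPM in Ndrg3 LKO livers. Replicates 1 to 4 were well above the WT range and replicate 5 just below it. The rise of *Wnt2* was 1.54 ± 0.36 on the log2 scale (SE, n = 5 and 5, adjusted p = 0.00412 by edgeR) and 1.76 ± 0.20 without replicate 5.

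*Rspo3*, the R-spondin of the central vein, was 2.98, 2.64, 3.17, 1.93 and 3.10 CPM in WT livers and 4.89, 4.02, 4.74, 6.07 and 3.39 CPM in Ndrg3 LKO livers. *Wls*, which carries Wnt proteins to the cell surface, was between 1.10 and 2.17 CPM in WT livers and between 3.44 and 4.56 CPM in Ndrg3 LKO livers. In both genes every Ndrg3 LKO liver, replicate 5 included, was above every WT liver, and the log2 fold changes were 0.75 ± 0.21 for *Rspo3* (SE, n = 5 and 5, adjusted p = 0.0112 by edgeR) and 1.22 ± 0.22 for *Wls* (adjusted p = 0.000918), or 0.83 and 1.25 without replicate 5. *Wnt9b*, another ligand of the central vein, did not pass the filter with all livers, at 0.440 to 0.919 CPM in WT livers and 1.18, 1.14, 1.72, 1.34 and 0.660 CPM in Ndrg3 LKO livers. It was tested without replicate 5, at 1.03 ± 0.28 on the log2 scale (adjusted p = 0.0079 by edgeR). However, *Wnt9b* was under 1 CPM in every WT liver and so passed the filter only through Ndrg3 LKO livers. *Wnt5b*, which mostly acts without beta-catenin, fell by 0.50 on the log2 scale (SE 0.17, adjusted p = 0.0273 by edgeR) and stood at 0.00038 without the TMM correction and at -0.62 without replicate 5. Its call was lost without any of Ndrg3 LKO replicates 1, 2 and 4 or WT replicate 1 (adjusted p = 0.0522 to 0.0606).

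Genes of liver endothelial cells, a known source of these ligands, moved in the same direction. Of 11 such genes, all tested, 9 were called higher and none lower, with a median log2 fold change of 1.21 (8 and 1.24 without replicate 5), and their summed level was 90.0 to 123 CPM in WT livers, 194 to 227 in Ndrg3 LKO replicates 1 to 4 and 188 in replicate 5. *Pecam1* and *Cdh5*, which define endothelium, rose by 1.31 (adjusted p = 4.47e-05 by edgeR) and 1.48 (adjusted p = 4.7e-05) on the log2 scale (1.24 and 1.43 without replicate 5) and were present in both groups (6.64 and 4.59 CPM on average in WT livers). Their part in the rise of *Wnt2*, *Wls* and *Rspo3* was not tested. Of the macrophage genes 6 of 6 were called higher, with a median of 1.40 (6 and 1.50 without replicate 5) and a summed level of 52.7 to 126 CPM in WT and 126 to 401 CPM in Ndrg3 LKO livers. Of the stellate cell and fibroblast genes 4 of 7 were called higher, with a median of 1.24 (4 and 0.95 without replicate 5). Of 5 biliary genes tested, 1 (*Spp1*) was higher and 1 lower, and 2 (*Spp1* and *Epcam*) were higher without replicate 5, against 1 higher of 1 lymphocyte gene tested. The counts of these cell-type lists stand beside 25.6% of all genes called higher and 23.0% lower, or 28.4% and 27.2% without replicate 5.

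**Figure D4:**
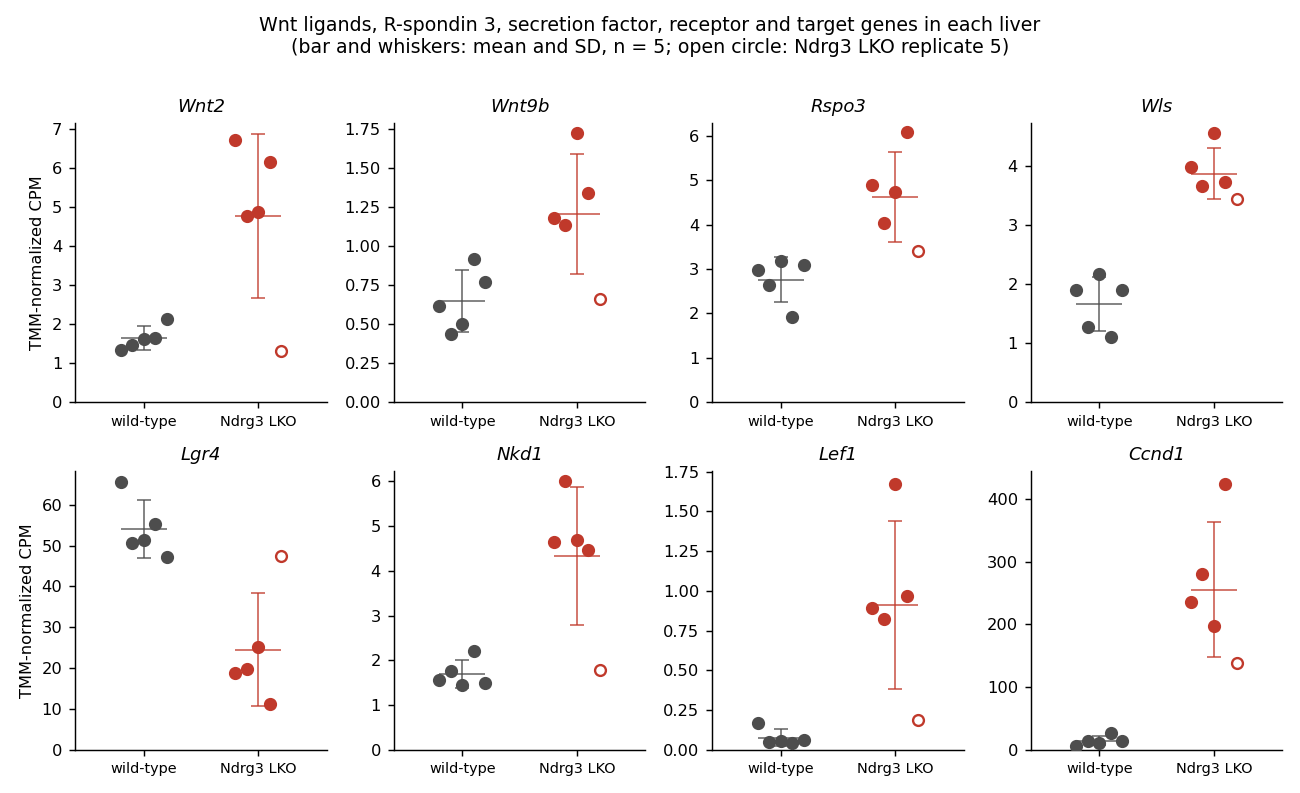
TMM-normalized CPM (vertical axis of each panel, linear and starting at 0) of 8 Wnt pathway genes in 5 WT and 5 Ndrg3 LKO livers, with the mean and SD of each group and an open circle for Ndrg3 LKO replicate 5 (Wnt9b and Lef1 did not pass the filter on low counts). Every Ndrg3 LKO liver lies above every WT liver for Rspo3, Wls and Ccnd1, and the open circle lies within or below the WT points for Wnt2, Wnt9b and Nkd1 and within them for Lgr4. For Lef1 replicates 1 to 4 lie above the WT points, and the open circle (4 counts) is not separated from WT replicate 1 (3 counts) beyond counting error.

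Among 14 receptor and co-receptor genes, 9 were tested, 4 fell and none rose, with a median log2 fold change of -0.05 (3 and 1 with a median of 0.07 without Ndrg3 LKO replicate 5). Beside this, 23.0% of all genes were called lower and 25.6% higher (27.2% and 28.4% without that liver). *Lgr4*, the R-spondin receptor that hepatocytes express broadly, was 65.6, 50.7, 51.5, 55.3 and 47.3 CPM in WT livers and 18.7, 19.9, 25.1, 11.3 and 47.6 CPM in Ndrg3 LKO livers. Replicates 1 to 4 were below all WT livers and replicate 5 was within their range. The log2 fold change was -1.15 ± 0.30 (SE, n = 5 and 5, adjusted p = 0.00862 by edgeR) and -1.54 ± 0.20 without replicate 5. *Fzd8*, a Frizzled receptor, fell in every Ndrg3 LKO liver, from 6.06 to 11.1 CPM in WT livers to 2.08 to 3.86 CPM, at -1.52 ± 0.23 (adjusted p = 0.000319 by edgeR), or -1.49 without replicate 5. The co-receptor *Lrp5* was 34.5 to 56.6 CPM in WT livers and 63.8, 121, 113, 58.9 and 21.2 CPM in Ndrg3 LKO livers, at 0.78 ± 0.36 (adjusted p = 0.0932 by edgeR), and rose by 1.01 without replicate 5 (adjusted p = 0.0031). Its partner *Lrp6* was at 0.21 ± 0.14 (adjusted p = 0.248).

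Of 13 genes of the cytoplasmic chain, all tested, 3 fell and 1 rose (3 and 2 without Ndrg3 LKO replicate 5). Of all genes tested, 23.0% were called lower and 25.6% higher (27.2% and 28.4% without it), so the count of falls was near the share over all genes. *Ctnnb1*, which encodes beta-catenin, was 194 to 234 CPM in WT livers and 217 to 283 CPM in Ndrg3 LKO livers, at 0.26 ± 0.13 on the log2 scale (SE, n = 5 and 5, adjusted p = 0.105 by edgeR) and 0.29 without replicate 5 (adjusted p = 0.0511). Among genes of the complex that degrades beta-catenin, *Axin1*, *Apc* and *Amer1* were called lower and *Gsk3b* was not. *Axin1* went from 21.3 to 26.6 CPM in WT livers to 12.1 to 17.2 CPM in Ndrg3 LKO livers, with no overlap, at -0.69 ± 0.13 (adjusted p = 0.00144 by edgeR), or -0.76 without replicate 5, and lost the call without the TMM correction, at -0.18. *Apc* was at -0.51 ± 0.14 (adjusted p = 0.0126, and 0.0015 on the log2 scale without the TMM correction) and *Amer1*, which binds APC, at -1.19 ± 0.25 (adjusted p = 0.00251), or -0.61 and -1.38 without replicate 5, while the kinase *Gsk3b* was at 0.39 ± 0.21 (adjusted p = 0.133) and passed the test without Ndrg3 LKO replicate 5, at 0.50 (adjusted p = 0.0333). *Dvl2*, which relays the signal from Frizzled receptors, rose by 0.59 (adjusted p = 0.0335 by edgeR), a call lost without any of Ndrg3 LKO replicates 2, 3 and 4 or WT replicates 2, 3 and 5 (adjusted p = 0.0522 to 0.0846).

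In the nucleus, 10 of 12 genes were tested, 3 rose and 1 fell (4 and 1 of 11 without Ndrg3 LKO replicate 5). Beside this, 25.6% of all genes were called higher and 23.0% lower (28.4% and 27.2% without that liver). The gene added in the fit without replicate 5 was *Lef1*, which passed the filter only through Ndrg3 LKO livers. The TCF partner most used in liver, *Tcf7l2*, was 8.87 to 12.9 CPM in WT livers and 9.31 to 13.5 CPM in Ndrg3 LKO livers, at 0.09 ± 0.15 on the log2 scale (SE, n = 5 and 5, adjusted p = 0.659 by edgeR). Of the Groucho-type co-repressors, *Tle3* was at 1.35 ± 0.21 (adjusted p = 0.000364), *Tle1* at 0.68 ± 0.12 (adjusted p = 0.000812) and *Tle2* at -1.97 ± 0.52 (adjusted p = 0.0083), or 1.49, 0.67 and -2.59 without replicate 5, while *Tle4* was at 0.23 ± 0.16 (adjusted p = 0.25 by edgeR).

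Of 6 target genes outside the 10, 4 were tested, 2 rose and none fell (3 and none without replicate 5, with *Tnfrsf19*). Beside this, 25.6% of all genes were called higher and 23.0% lower (28.4% and 27.2% without that liver). *Nkd1*, another feedback inhibitor, was 1.57, 1.76, 1.45, 2.21 and 1.49 CPM in WT livers and 4.66, 6.01, 4.68, 4.47 and 1.79 CPM in Ndrg3 LKO livers. As for *Axin2* and *Rnf43*, replicates 1 to 4 were above the WT range and replicate 5 was not. The log2 fold change was 1.35 ± 0.29 (SE, n = 5 and 5, adjusted p = 0.00261 by edgeR) and 1.53 ± 0.20 without replicate 5. *Ccnd1*, cyclin D1, a target of many growth signals, was 6.57, 14.8, 11.6, 26.9 and 13.8 CPM in WT livers and 236, 281, 198, 424 and 139 CPM in Ndrg3 LKO livers. It rose in every Ndrg3 LKO liver, replicate 5 included, at 4.11 ± 0.40 (adjusted p = 2.13e-05 by edgeR), or 4.26 without replicate 5. *Notum*, a secreted Wnt deacylase that was listed with the inhibitors and named after its values had been seen, was 30.0 to 40.8 CPM in WT and 24.0 to 41.5 CPM in Ndrg3 LKO livers, at -0.03 ± 0.15 (adjusted p = 0.885). Among the 4 inhibitors tested, *Dkk3* and *Frzb* were called higher, at 1.82 and 1.34 (1.93 and 1.14 without replicate 5), but they were under 1 CPM in every WT liver and so passed the filter only through Ndrg3 LKO livers.

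Lastly, the 10 genes were set beside other zoned genes of the hepatocyte. Of 18 further pericentral genes, 11 were called lower and 1 higher, beside 23.0% and 25.6% of all genes, with a median log2 fold change of -0.92, or 12 and 1 with a median of -1.29 without Ndrg3 LKO replicate 5. *Cyp2c54*, a cytochrome P450, was 274 to 463 CPM in WT livers and 1.995 to 13.8 CPM in Ndrg3 LKO livers, at -5.75 ± 0.48 (SE, n = 5 and 5, adjusted p = 8.92e-06 by edgeR), or -6.29 without replicate 5. *Cyp2c50* was at -4.88 and *Cyp2c37* at -4.21 (-5.34 and -4.19 without replicate 5), with no overlap between groups in any of the 3, although reads of these near-identical family members may be split between them. *Avpr1a*, the vasopressin receptor of pericentral hepatocytes, was the 1 gene called higher, at 1.03 ± 0.35 (adjusted p = 0.0292 by edgeR), and like *Axin2* it was above the WT range in Ndrg3 LKO replicates 1 to 4 (37.9 to 51.3 CPM) and below it in replicate 5 (10.9 CPM), at 1.25 without it. The call was lost without any of Ndrg3 LKO replicates 1, 3 and 4 or WT replicates 2, 4 and 5 (adjusted p = 0.0595 to 0.0724).

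Of 15 periportal genes, 14 were tested, 3 were called lower and 1 higher, beside 23.0% and 25.6% of all genes, with a median log2 fold change of -0.13. Without Ndrg3 LKO replicate 5, 6 of 14 were called lower and 1 higher, beside 27.2% and 28.4%, with a median of -0.37. *Cyp2f2*, the usual periportal marker, was 855 to 1509 CPM in WT livers and 25.5, 22.9, 11.2, 69.9 and 808 CPM in Ndrg3 LKO livers. Replicate 5 stood close to the WT range and far from the other 4 Ndrg3 LKO livers. The log2 fold change was -2.72 ± 1.02 (SE, n = 5 and 5, adjusted p = 0.0431 by edgeR) and -5.27 ± 0.51 without replicate 5, and leaving out any 1 of the other 9 livers ended the call (adjusted p = 0.0569 to 0.0914). *Pigr*, the receptor that carries immunoglobulin A into bile, fell at -4.63 ± 0.75 (adjusted p = 0.000515 by edgeR), or -6.03 without replicate 5. *Asl*, of the urea cycle, was 316 to 494 CPM in Ndrg3 LKO replicates 1 to 4 and 2112 CPM in replicate 5, against 1478 to 2122 CPM in WT livers, at -1.28 ± 0.48 (adjusted p = 0.0442), or -2.17 without replicate 5, and its call was also lost without any 1 of the other 9 livers (adjusted p = 0.0522 to 0.0994). *Etnppl*, a phospholyase, rose at 1.26 ± 0.37 (adjusted p = 0.0153), or 0.88 without replicate 5, and *Gls2*, the glutaminase opposed to glutamine synthetase, was at 0.39 ± 0.27 (adjusted p = 0.24 by edgeR) and 0.05 without replicate 5. Whether pericentral and periportal genes differed in their response was not tested.

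**Figure D5:**
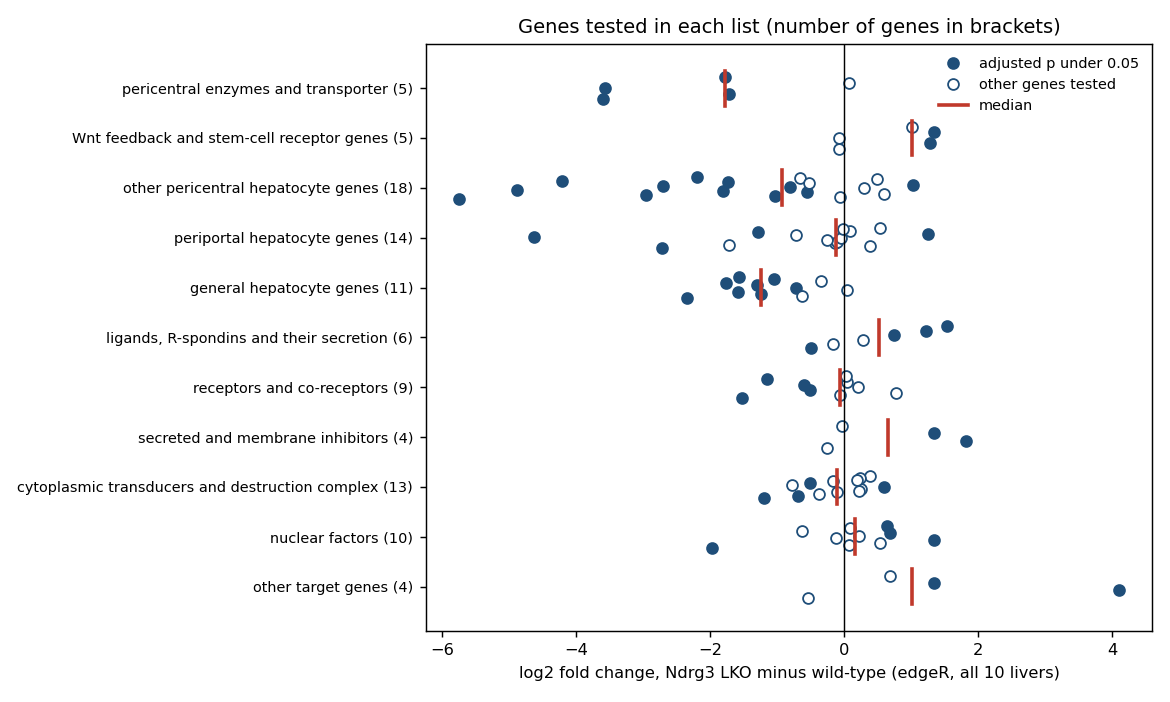
Log2 fold change of Ndrg3 LKO minus WT over all 10 livers (horizontal axis, edgeR) of each gene tested in 11 lists (rows, number of genes in brackets), with filled points for adjusted p under 0.05 and a bar at the median. The medians are -1.78 for the enzymes and transporter among the 10 genes and 1.01 for the feedback and receptor genes among them, -0.92 for the other pericentral, -0.13 for the periportal and -1.24 for the general hepatocyte genes.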

How the data were processed

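Stranded mRNA libraries were prepared by the authors from 10 mouse livers. STAR was used to align reads (mm9) and to count them, and what was deposited is raw counts for every gene symbol, not normalized. The submitters' processing notes name STAR 2.7.3a, Trim Galore 0.6.4 and Cufflinks 2.2.1. The deposited tables are titled as CPM but hold whole numbers with unequal totals and were used as counts. A gene was tested where 5 livers or more (4 where a liver was left out) reached 1 CPM, with edgeR 4.0.16 (R 4.3.3) by the quasi-likelihood test with TMM scaling and Benjamini-Hochberg adjustment over all genes, at 0.05. Standard errors came from the fold change and its F statistic. Levels are TMM-normalized CPM. Exact permutation tests used log2(CPM + 1). DESeq2 1.42.0, limma 3.58.1, other scalings and filters, the replicate block and each liver left out were alternatives. The members, gene lists and alternatives were chosen with earlier results of these data known. The genes named were *Ndrg3*, the 10 genes, 15 genes of the Wnt pathway and periportal lists, the called genes that moved most in each list, and 3 nearest profiles each for *Glul*, *Axin2* and *Cyp2e1*, of which 1 is not reported here. *Alb*, *Pecam1*, *Cdh5*, *Spp1*, *Epcam*, *Tle4*, *Tnfrsf19*, *Notum*, *Wnt10a* and *Lef1* were added to these with their values known. The other general hepatocyte genes and *Dkk4*, *Wif1*, *Wnt11*, *Wnt9a* and *Wnt5a* were added in the same way. Of 200 genes changed in simulated counts of 11208 genes, edgeR recovered 159, with 6 false calls among 165. The simulation held far fewer changed genes than were called in the livers and no library that stood apart. Its figures therefore do not cover the effect of scaling or of Ndrg3 LKO replicate 5. No 2 livers of a group agreed within counting noise (20 pairs, chi-square per degree of freedom 25.8 to 450.3). A count of 3 was taken as the floor of a library or group, which covers counting error only. Gene positions are those of GENCODE on NCBIM37 (mm9), which held 20945 of the 24052 symbols.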

Additional observations from a re-analysis of the deposited data

Results flagged for a closer look

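None of the 10 genes had a liver that stood apart from the others of its group by Dixon's ratio (critical value 0.71 for 5 livers). Among the 86 groups of the 43 genes named and tested, 8 had such a liver, where chance gives about 1 in 20, and 5 of the 8 were Ndrg3 LKO replicate 5. In that liver *Cyp2f2* was 807.8 CPM against 11.2 to 69.9 in the other Ndrg3 LKO livers, *Pigr* 172.7 against 9.45 to 25.5, *Asl* 2112.1 against 316 to 494, *Gls2* 870.5 against 308 to 463 and *Tle2* 4.478 against 0.751 to 1.73. The others were *Fzd8* in Ndrg3 LKO replicate 3 (3.861 CPM against 2.08 to 2.51), and *Cyp2c50* (965.1 CPM against 772 to 814) and *Cyp2c54* (463.3 CPM against 274 to 308) in WT replicate 1.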

How the results depend on the processing

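*Glul*, *Cyp2e1*, *Slc1a2* and *Cyp1a2* passed the test as lower in all 17 alternatives, and *Rnf43* as higher, while *Axin2* passed in 13 of 17. Of 169 fold changes of the 10 genes recomputed, 155 kept their direction and side of the threshold, and 7 changed sign, all of genes not called. These were *Znrf3* with library-size scaling (0.48), without Ndrg3 LKO replicate 4 (0.014) or 5 (0.048) and without WT replicate 4 (0.024), *Tbx3* with library-size scaling (0.50) and without Ndrg3 LKO replicate 5 (0.071), and *Oat* without WT replicate 1 (-0.012). With 1 liver left out, *Znrf3* ranged from -0.21 to 0.048, *Tbx3* from -0.25 to 0.071 and *Oat* from -0.012 to 0.22. *Wnt5b* and *Apc* moved to 0.00 with library-size scaling (0.00038 and 0.0015). Of the 535 fold changes of other named genes recomputed, 482 kept direction and side.

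The count of the 10 genes called higher was 4 with library-size scaling, 1 with limma on log2(CPM + 1) and 1 with the replicate block, and 1 to 3 with 1 liver left out. *Axin2* was lost with limma (adjusted p = 0.0797) and with the replicate block (adjusted p = 0.0794). The count of Wnt pathway genes called lower was 4 with library-size scaling, 5 with a mean CPM of at least 5 (fewer genes tested), 5 with the replicate block and 6 to 10 with 1 liver left out, and the count called higher was 26, 5, 9 and 9 to 16. Periportal genes called lower were 5 with limma and 1 to 6 with 1 liver left out. Except where fewer genes or livers entered, the cause was not tested. No pairing of livers by the numbers 1 to 5 was seen: correlations of deviations within a number ran from -0.36 to 0.04, none over 0.1, and 0 livers correlated best with their own number. Whether livers of the same number shared a litter was not given in the sources used here, and these correlations cannot exclude it. With the replicate block 4412 genes were called, against 5443 without it.

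On simulated data, with the limits given above for the simulation, edgeR recovered 68 of 107 changes of 2-fold and 91 of 93 of 4-fold.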

Other observations

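Some Wnt pathway genes that did not pass the filter over all 10 livers differed between the groups, and they were picked after their values had been seen. They went in both directions. In an edgeR fit without this filter, *Dkk4*, a secreted inhibitor, was at -3.91 on the log2 scale (adjusted p = 0.000629). *Wif1* was at -2.47 (adjusted p = 0.0338), *Wnt11* at -2.05 (adjusted p = 0.0378) and *Wnt9a* at -1.28 (adjusted p = 0.0258). *Wnt5a* was at 1.25 there (adjusted p = 0.0319). All of these had low counts. *Wnt10a*, a ligand gene, had 0 counts in every WT liver and 14, 183, 80, 12 and 163 counts in Ndrg3 LKO livers 1 to 5. Against a floor of 3 counts over the 5 WT livers, its mean TMM-normalized CPM was at least 94.3-fold higher in Ndrg3 LKO livers. Single livers varied widely, at 0.402, 4.435, 2.059, 0.342 and 7.683 CPM, and replicate 5 was the highest. *Lef1*, which encodes a nuclear partner of beta-catenin, had 3, 1, 1, 1 and 1 counts in WT livers and 31, 34, 65, 34 and 4 counts in Ndrg3 LKO livers. Replicate 5 thus stood near the WT livers, as it did for *Nkd1*, whereas for *Axin2* it lay below them.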
